A study of Mus musculus with 6 samples.

Results

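The genes of the unfolded protein response and the integrated stress response were examined in cultured mouse cortical astrocytes with and without an astrocyte deletion of neogenin (Neo1, a cell-surface receptor that binds netrins and RGM proteins). The set held 10 genes, Hspa5, Hsp90b1, Pdia4, Dnajb9, Sdf2l1, Herpud1, Ddit3, Trib3, Atf4 and Asns, taken by symbol from a table of 54532 gene rows. These 10 symbols matched 11 rows, because Ddit3 was listed under 2 identifiers; ENSMUSG00000116429, which lies wholly within the exons of the other Ddit3 row, had 0 reads in every library and is not used further. All 10 genes passed the filter on low counts, as did 18530 genes in all.

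The 6 libraries were bulk poly(A) RNA-seq of primary cortical astrocyte cultures, 3 from knockout pups labelled GFAP-Cre::NEOf/f and 3 from littermate control pups. In the knockout the Gfap promoter drives Cre, which removes the floxed Neo1 segment in cells with Gfap promoter activity and in their descendants; the labels call the other group control and its libraries Neoff, and give no Cre status, age or sex for it. Replicates are labelled biological, without saying whether each was a pup, a litter or a culture. Total counts ran from 60819277 to 106081115 per library. Knockout replicate 2 stood apart from knockout replicates 1 and 3 on both the first and the second principal component of the log2 expression values. It was at 67.02 against 30.02 and 30.54 on the first (49.3% of the variance). On the second (19.6%) it was at 46.04 against -32.02 and -36.36. It had reads in 22076 genes, the fewest of the 6 libraries. Levels are in CPM, counts scaled to a common library size. Neo1 itself fell from 192 ± 5.20 CPM in control to 104 ± 2.69 CPM in knockout cultures (SD, n = 3 each; log2 fold change -0.89, adjusted p = 5.8e-11), so much of its RNA was still counted.

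Proteins entering the secretory pathway fold in the endoplasmic reticulum (ER), and an excess of unfolded protein there activates the sensors IRE1 (Ern1), PERK (Eif2ak3) and ATF6. ATF6 and the spliced form of XBP1, which IRE1 produces, induce chaperones and degradation factors, many of them through the ER stress response elements ERSE and ERSE-II in promoters. PERK is also a kinase of the integrated stress response: phosphorylation of the translation factor eIF2α lowers general translation while translation of the Atf4 mRNA rises, and ATF4 then induces Asns, Trib3 and Ddit3 through C/EBP-ATF response elements (CARE). In astrocytes, PERK signalling is known for its part in reactive states that harm synapses in models of prion disease.

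Of the 10 genes, 5 rose in the knockout (Hspa5, Hsp90b1, Pdia4, Dnajb9 and Ddit3) and 0 fell at an adjusted p under 0.05 in edgeR's quasi-likelihood test over all genes; among all genes tested, 19.6% rose and 18.7% fell. In bulk libraries, more cells of a type and more RNA per cell cannot be told apart. The 5 rises ranged from 1.104-fold for Pdia4 to 1.62-fold for Ddit3. In 6 of the 10, the same 5 and Herpud1, every knockout library was above every control library, and in 0 every knockout library was below, against 24.7% and 24.5% of all genes tested. The median log2 fold change was 0.14 over the 10 genes and -0.00 over all genes tested. When libraries were scaled by their total counts alone, 3 of the 10 rose (Hspa5, Hsp90b1 and Ddit3) and 1 fell (Atf4), against 15.8% and 24.3% of all genes tested; of all genes called, 3627 rose and 3466 fell with TMM scaling, and 2921 rose and 4499 fell with total counts.

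**Figure D1:**
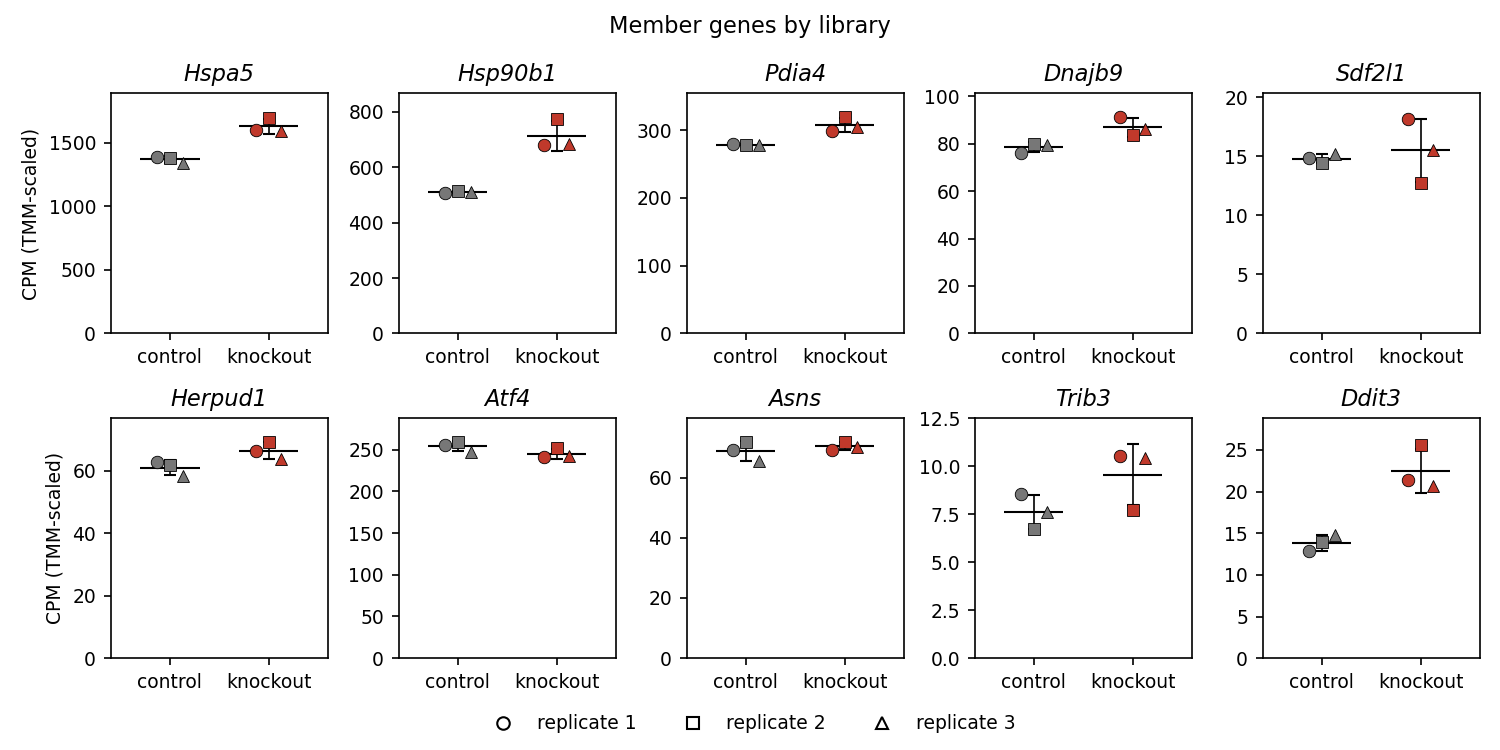
CPM on TMM-scaled library sizes (vertical axes, each from 0) of the 10 genes in control (grey) and knockout (red) cultures; circles, squares and triangles are replicates 1, 2 and 3, horizontal lines are means and bars are SD (n = 3). Hspa5, Hsp90b1, Pdia4, Dnajb9, Herpud1 and Ddit3 do not overlap between the groups, while Sdf2l1, Atf4, Asns and Trib3 do.

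Levels per length of exon differed widely among the 10 genes. In control cultures the length-scaled levels (RPKM, CPM per kilobase of exon) were 324 ± 6.62 for Hspa5, 127 ± 1.097 for Hsp90b1, 116 ± 0.123 for Pdia4 and 108 ± 2.68 for Atf4 (SD, n = 3). Dnajb9 at 30.8 ± 0.804, Herpud1 at 26.1 ± 1.00 and Asns at 25.2 ± 1.19 RPKM formed a middle group, in which Herpud1 and Asns overlapped between libraries. Sdf2l1 (13.4 ± 0.341 RPKM), Ddit3 (8.10 ± 0.567 RPKM) and Trib3 (3.59 ± 0.419 RPKM) were lowest, without overlap between neighbours. In knockout cultures the order of the means was the same, but Ddit3 at 13.1 ± 1.55 RPKM now overlapped with Sdf2l1 at 14.0 ± 2.44 RPKM. Hspa5 ranked 83 among all genes by control RPKM. Summed over the 10 genes, the level was 2617 to 2685.5 CPM in control and 3094 to 3316 CPM in knockout libraries, of which Hspa5 contributed most.

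Hspa5 (ENSMUSG00000026864, GRCm38 chromosome 2, 34771970 to 34777547) encodes BiP, the abundant ER chaperone that also holds the stress sensors inactive. It was at 1391, 1383 and 1339 CPM in control replicates 1, 2 and 3, and at 1603, 1699.55 and 1595 CPM in knockout replicates 1, 2 and 3. The highest control library was 1391 and the lowest knockout library 1595 CPM, and the 3 knockout libraries lay close together. Hspa5 rose 1.19-fold (log2 fold change 0.25, SE 0.04, adjusted p = 5.7e-05).

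Hsp90b1 (ENSMUSG00000020048, chromosome 10, 86690209 to 86705509) encodes GRP94, the HSP90 chaperone of the ER. Control libraries held 507, 516 and 512 CPM and knockout libraries 681, 775 and 685 CPM. The controls were almost equal, and knockout replicate 2 was the highest. Its rise, 1.39-fold, was the larger of these 2 (log2 fold change 0.48, SE 0.05, adjusted p = 3.6e-07). Exons of the antisense pseudogene 1810014B01Rik cover 10.29% of the Hsp90b1 exon bases and 273 bases are identical, but that row held only 83 to 219 reads per library.

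Within each library, Hsp90b1 gave 36.5, 37.3 and 38.2 reads per 100 Hspa5 reads in control and 42.5, 45.6 and 43.0 in knockout cultures. The ratio does not depend on how libraries are scaled, and every knockout library was above every control library. With 3 against 3 libraries the exact two-sided permutation test cannot go below p = 0.10, which it reached here (Benjamini-Hochberg 0.12 over the 6 ratios computed).

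Pdia4 and Dnajb9 rose by less. Pdia4 (ENSMUSG00000025823, chromosome 6, 47796141 to 47813430), a protein disulfide isomerase that forms and rearranges disulfide bonds, was at 279.0, 278.4 and 278.6 CPM in control and 299, 320 and 304 CPM in knockout cultures. The groups did not overlap, and the control spread was very small (SD 0.296). The difference was 1.104-fold (log2 fold change 0.14, SE 0.04, adjusted p = 0.012), but the call was lost with total-count scaling (log2 fold change 0.08, adjusted p = 0.15), without control replicate 1 (adjusted p = 0.053) and without control replicate 2 (adjusted p = 0.059). Dnajb9 (ENSMUSG00000014905, chromosome 12, 44205559 to 44210326) encodes ERdj4, a BiP co-chaperone. Its libraries read 76.2, 79.9 and 79.6 CPM in control and 91.2, 83.5 and 86.1 CPM in knockout cultures, so the groups did not overlap but lay close. The 1.11-fold rise (log2 fold change 0.15, SE 0.05, adjusted p = 0.034) fell short of the threshold in 7 of 12 alternatives, among them total-count scaling (log2 fold change 0.08, adjusted p = 0.24) and the fits without control replicate 1 (0.16), control replicate 2 (0.085), knockout replicate 1 (0.19) and knockout replicate 3 (0.075), all adjusted p.

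Sdf2l1 (ENSMUSG00000022769, chromosome 16, 17130138 to 17132383), which encodes an ER protein that works with BiP co-chaperones, was not called. Control libraries were at 14.8, 14.4 and 15.2 CPM, inside the range of the knockout libraries at 18.2, 12.8 and 15.6 CPM. Knockout replicate 1 was the highest and knockout replicate 2 the lowest of all 6 (log2 fold change 0.07, 95% interval -0.16 to 0.30, adjusted p = 0.68). Without knockout replicate 1 the estimate was -0.07.

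Herpud1 (ENSMUSG00000031770, chromosome 8, 94386438 to 94395377) encodes HERP, a membrane protein of the ER-associated degradation complex. The control libraries were at 62.6, 62.0 and 58.3 CPM and the knockout libraries at 66.3, 69.2 and 63.7 CPM. Although the groups did not overlap, the difference did not pass after adjustment (log2 fold change 0.12, SE 0.06, adjusted p = 0.089).

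Promoter sequence was read for the 10 genes from the RefSeq promoter table (GRCm38.p6), which held all 10. The 250 bases before each RefSeq start were searched on both strands for exact matches to ERSE (CCAAT and CCACG with 9 bases of any kind between them), ERSE-II (ATTGG and CCACG with 1 base between them), CARE (TGATGNAAN) and UPRE (TGACGTGG), the XBP1 element. ERSE and ERSE-II share the block CCACG, so these 2 can overlap there. Among 32851 such windows of all genes, 0.113% hold ERSE, 0.0304% ERSE-II, 3.44% CARE and 0.563% UPRE. The windows that hold any of these elements are shown because they hold the known response elements of both arms, with the matches in capitals, 5′ to 3′ on the strand of the gene:
Hspa5, chr2:34771840-34772089, plus strand: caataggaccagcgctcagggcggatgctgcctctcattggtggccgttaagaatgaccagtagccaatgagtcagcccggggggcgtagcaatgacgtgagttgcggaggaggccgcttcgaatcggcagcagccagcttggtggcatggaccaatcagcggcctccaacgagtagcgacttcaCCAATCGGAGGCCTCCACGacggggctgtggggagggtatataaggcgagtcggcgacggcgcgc
Hsp90b1, chr10:86705445-86705694, minus strand: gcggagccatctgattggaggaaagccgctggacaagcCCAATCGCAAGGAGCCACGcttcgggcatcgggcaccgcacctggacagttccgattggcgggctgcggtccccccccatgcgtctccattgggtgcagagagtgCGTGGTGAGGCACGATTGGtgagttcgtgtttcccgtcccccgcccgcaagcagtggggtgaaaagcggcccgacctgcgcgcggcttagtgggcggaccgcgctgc
Herpud1, chr8:94386179-94386428, plus strand: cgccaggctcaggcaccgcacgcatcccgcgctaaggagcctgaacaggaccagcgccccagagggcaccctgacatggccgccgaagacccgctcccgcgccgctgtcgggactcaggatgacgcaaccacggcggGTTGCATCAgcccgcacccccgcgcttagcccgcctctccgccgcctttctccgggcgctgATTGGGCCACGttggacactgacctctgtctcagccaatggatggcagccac
Asns, chr6:7693210-7693459, minus strand: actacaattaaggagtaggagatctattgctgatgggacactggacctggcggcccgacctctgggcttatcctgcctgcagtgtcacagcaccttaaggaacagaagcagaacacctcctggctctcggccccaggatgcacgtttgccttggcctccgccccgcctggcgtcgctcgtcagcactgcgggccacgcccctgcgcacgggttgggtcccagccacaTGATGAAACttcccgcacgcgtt

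Counted from the RefSeq start, the ERSE of Hspa5 lies at bases -65 to -47. Hsp90b1 holds ERSE at -212 to -194 and again, on the opposite strand, at -107 to -89. Herpud1 holds ERSE-II at -52 to -42 and, on the opposite strand, CARE at -113 to -105, and Asns holds CARE at -23 to -15. The earliest GENCODE starts of Hspa5, Hsp90b1 and Asns lie within these windows, so distances depend on the start chosen. In Pdia4, Dnajb9, Sdf2l1, Ddit3, Trib3 and Atf4 none of the 4 motifs is spelled exactly in the window, which says nothing about elements farther away or with other letters.

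**Figure D2:**
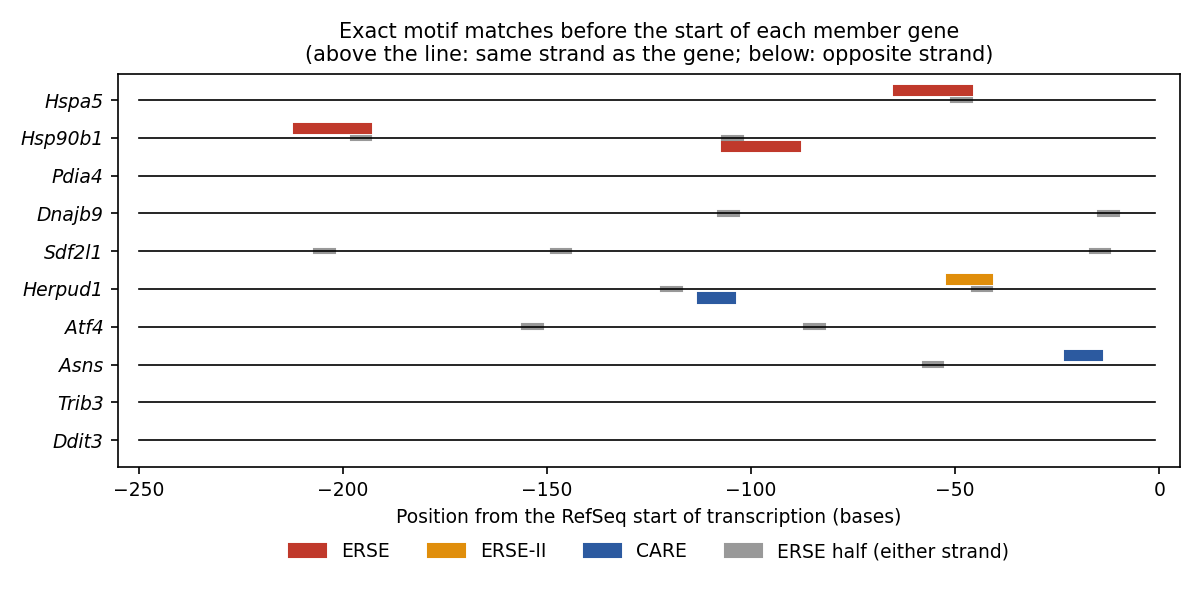
Exact motif matches in the 250 bases before the RefSeq start of the 10 genes (horizontal axis, position in bases); boxes above a line lie on the strand of the gene, boxes below on the opposite strand, and grey marks are the CCACG block on either strand. Hspa5 and Hsp90b1 hold ERSE (red), Herpud1 ERSE-II (orange) and CARE (blue), and Asns CARE.

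The same search over all promoters gave 20 tested genes with ERSE, of which 8 (40%) rose and 1 (5.0%) fell, against 19.6% and 18.7% of all genes tested. Apart from Hspa5 and Hsp90b1 these were 18 genes, of which 6 rose and 1 fell, with a median log2 fold change of 0.09. They included the ER lectin chaperones Calr (988 ± 32.3 to 1110.5 ± 46.5 CPM) and Canx and the disulfide isomerase Pdia6 (475 ± 15.3 to 530.1 ± 12.8 CPM), which rose. Xlr3b and Gm6566, both under 3 CPM in each group, and Hnrnpa3 rose too, and Creld2, an ER-resident isomerase, fell from 64.0 ± 1.85 to 56.9 ± 2.68 CPM (adjusted p = 0.023). With total-count scaling 5 of the 20 rose, against 15.8% of all genes tested. The count that fell was 0 without control replicate 1, control replicate 2, knockout replicate 2 or knockout replicate 3, and 2 without knockout replicate 1. Of 7 tested genes with ERSE-II, 2 rose and 0 fell (median 0.13). Of 110 with UPRE, 26 (23.6%) rose and 18 (16.4%) fell (median 0.02), and of 305 with CARE, 76 (24.9%) rose and 57 (18.7%) fell (median 0.04). Both shares that rose were close to the 19.6% of all genes tested, though above it. Of 5538 tested genes with the CCACG block, 20.7% rose and 22.8% fell. Differences between the motif groups and all genes were not tested.

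In the arm of the integrated stress response, Ddit3 rose, while Atf4, Asns and Trib3 were not called. Atf4 (ENSMUSG00000042406, chromosome 15, 80255184 to 80257541), the bZIP factor at the centre of the response, was at 255, 260 and 247 CPM in control and 241, 252 and 243 CPM in knockout cultures. These ranges overlapped (log2 fold change -0.05, 95% interval -0.14 to 0.04, adjusted p = 0.38), although with total-count scaling the gene was called lower (log2 fold change -0.12, adjusted p = 0.035). ATF4 is controlled largely at translation, which RNA counts do not measure.

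Asns (ENSMUSG00000029752, chromosome 6, 7675169 to 7693254), asparagine synthetase and a much used readout of ATF4, was not called either. Its control libraries were at 69.3, 71.9 and 65.4 CPM and its knockout libraries at 69.1, 71.7 and 70.2 CPM; the knockout values lie within the control range. The log2 fold change was 0.03 with a 95% interval of -0.08 to 0.14 (adjusted p = 0.70).

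Trib3 (ENSMUSG00000032715, chromosome 2, 152337422 to 152344032), a pseudokinase induced by ATF4 and CHOP that restrains both, was the lowest of the 10. Control libraries held 8.54, 6.76 and 7.61 CPM and knockout libraries 10.6, 7.75 and 10.4 CPM. Knockout replicates 1 and 3 were above all controls, while knockout replicate 2 lay among them. The difference was not called (log2 fold change 0.33, SE 0.13, adjusted p = 0.065), but it was called without knockout replicate 2 (0.46, adjusted p = 0.00542), without the filter on low counts (adjusted p = 0.043) and with the replicate number as a block (0.32, adjusted p = 0.045).

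Ddit3 (ENSMUSG00000025408, chromosome 10, 127290774 to 127296288) encodes CHOP, a C/EBP family factor linked to cell death after lasting ER stress. It was at 12.9, 13.9 and 14.8 CPM in control and 21.4, 25.6 and 20.6 CPM in knockout cultures. All 3 knockout libraries exceeded all controls by more than the spread within either group. Ddit3 rose 1.62-fold, the largest difference of the 10 (log2 fold change 0.70, SE 0.09, 95% interval 0.50 to 0.90, adjusted p = 1.3e-05), and by 0.60 on the log2 scale without knockout replicate 2. Antisense exons of Mars cover 3.97% of the Ddit3 exon bases, and Mars itself was not called (129.7 ± 2.73 to 119.8 ± 2.22 CPM).

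**Figure D3:**
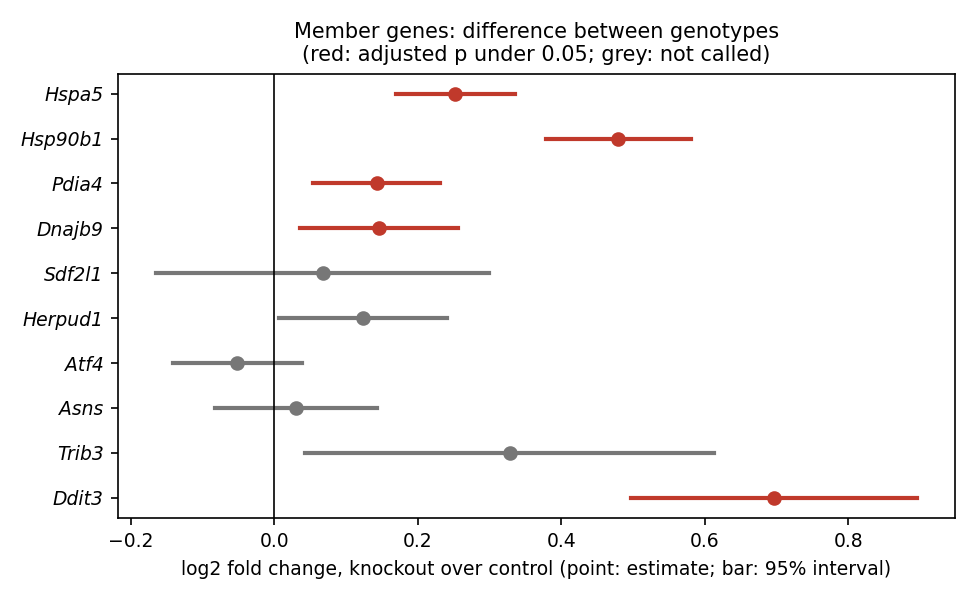
Log2 fold change of knockout over control (horizontal axis) for the 10 genes, with the 95% interval from edgeR as bars; red genes have an adjusted p under 0.05. Ddit3 (0.70) and Hsp90b1 (0.48) lie farthest to the right, and the intervals of Sdf2l1, Atf4 and Asns include 0.

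Ddit3, Asns and Hspa5 were also set against Atf4 within each library, as were Ddit3 against Hspa5 and Trib3 against Ddit3. Ddit3 gave 5.05, 5.35 and 6.004 reads per 100 Atf4 reads in control and 8.88, 10.1 and 8.501 in knockout cultures. Asns gave 27.1, 27.7 and 26.5 reads per 100 Atf4 reads in control and 28.7, 28.5 and 28.9 in knockout cultures, a narrow step without overlap. Hspa5 gave 544, 533 and 542 reads per 100 Atf4 reads in control and 666, 675 and 657 in knockout cultures. Each of these ratios, and Ddit3 to Hspa5 (0.927, 1.00 and 1.11 against 1.33, 1.504 and 1.29 reads per 100), was higher in every knockout library, at the smallest exact permutation p of 0.10. Trib3 gave 66.2, 48.6 and 51.3 reads per 100 Ddit3 reads in control and 49.4, 30.3 and 50.4 in knockout cultures, which overlapped (exact permutation p = 0.30). The pairs were chosen after the values had been seen.

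**Figure D4:**
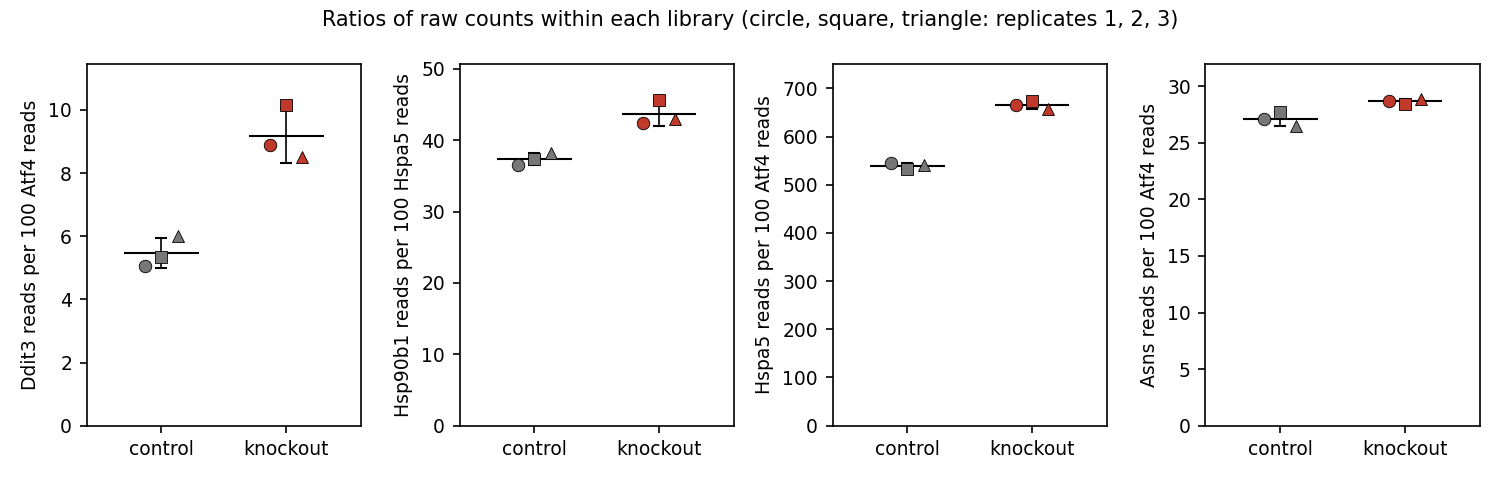
Raw count ratios within each library (vertical axes, reads of 1 gene per 100 reads of another, from 0) in control (grey) and knockout (red) cultures; lines are means and bars SD (n = 3). Ddit3 per 100 Atf4 reads runs from 5.05 to 6.004 in control and from 8.501 to 10.1 in knockout libraries, while Asns per 100 Atf4 reads runs from 26.5 to 27.7 in control and from 28.5 to 28.9 in knockout libraries.

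The knockout libraries did not order the 10 genes alike. Knockout replicate 2 was the highest knockout library for Hspa5, Hsp90b1, Pdia4, Herpud1, Ddit3, Atf4 and Asns, and the lowest for Dnajb9, Sdf2l1 and Trib3. Without it the rises of Hspa5 (log2 fold change 0.22), Hsp90b1 (0.42), Pdia4 (0.11), Dnajb9 (0.17) and Ddit3 (0.60) were still called.

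Among the sensors, Ern1, the kinase and endonuclease IRE1, rose from 33.4 ± 0.678 to 47.5 ± 2.05 CPM (log2 fold change 0.51, SE 0.06, adjusted p = 3.0e-06). Mbtps2, the protease that releases ATF6 in the Golgi, rose from 32.1 ± 1.96 to 40.9 ± 3.25 CPM (0.35, adjusted p = 8.1e-04); 28.37% of its exon bases are shared with Yy2 on the same strand, so its count is uncertain. The other 5 of 7 were not called: Xbp1 (-0.07), Eif2ak3 (-0.06), Atf6 (0.06), Atf6b (-0.11) and Mbtps1 (-0.02 on the log2 scale). In all, 2 of the 7 rose and 0 fell, against 19.6% and 18.7% of all genes tested. With total-count scaling 2 rose and 2 fell, against 15.8% and 24.3%. Splicing of Xbp1 cannot be read from gene counts.

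Of 19 other ER chaperones and folding enzymes, 9 rose and 2 fell, against 19.6% and 18.7% of all genes tested. Their median log2 fold change was 0.12. With total-count scaling 5 rose and 4 fell, against 15.8% and 24.3% of all genes tested, and the median was 0.058. The count that fell was 0 without control replicate 1, control replicate 2 or knockout replicate 3, and 1 without knockout replicate 1. Pdia3, the isomerase that works with the lectin chaperones, rose from 733 ± 16.2 to 899 ± 46.6 CPM (0.29, adjusted p = 3.1e-05). Txndc5, a thioredoxin-domain isomerase, rose from 389 ± 11.0 to 484 ± 8.60 CPM (0.31, adjusted p = 7.6e-06). Dnajc10, the ER reductase ERdj5, went from 214 ± 7.92 to 254 ± 12.6 CPM and Canx from 821 ± 9.72 to 935 ± 35.7 CPM, with adjusted p of 4.7e-04 and 0.0012. The other rises were Calr, Pdia6, P4hb, Hyou1 and Ero1l. The fall of Creld2 was joined by that of Manf, a secreted ER stress protein (185 ± 7.04 to 168 ± 1.68 CPM, -0.14, adjusted p = 0.023).

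In ER-associated degradation, 4 of 17 genes rose and 2 fell, against 19.6% and 18.7% of all genes tested. With total-count scaling 2 rose and 6 fell, against 15.8% and 24.3% of all genes tested. Without control replicate 2, 2 rose, against 15.1%. The median of 0.01 had no stable sign: it was -0.024 without control replicate 1, 0.055 without control replicate 2, -0.059 without control replicate 3, 0.002 without knockout replicate 1, -0.025 without knockout replicate 2, 0.015 without knockout replicate 3 and -0.059 with total-count scaling. Edem3 and Edem1, which trim mannose from misfolded glycoproteins, both rose, Edem3 from 95.6 ± 6.90 to 130.3 ± 6.09 CPM and Edem1 from 67.6 ± 1.51 to 81.1 ± 0.877 CPM (log2 fold changes 0.45 and 0.26, adjusted p = 6.4e-06 and 3.9e-04). The glycan lectin Erlec1 and the ligase adaptor Sel1l rose by 0.21 and 0.13 on the log2 scale. Ube2g2, a ubiquitin-conjugating enzyme, fell from 66.7 ± 2.22 to 58.0 ± 0.690 CPM (-0.20, adjusted p = 0.0057).

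Of 14 genes of protein entry into the ER, 7 rose and 1 fell, against 19.6% and 18.7% of all genes tested (list median 0.10, or 0.035 with total-count scaling). Both subunits of the signal recognition particle receptor were called, in opposite directions. Srpr rose from 164 ± 1.86 to 218 ± 11.1 CPM (0.41, adjusted p = 1.5e-06) and Srprb fell from 69.6 ± 3.94 to 48.1 ± 2.78 CPM (-0.53, adjusted p = 1.8e-06). Gm6733 is a near copy of 42.9% of the Srpr transcript, and 20.71% of the Srprb exon bases are shared with Gm20425 on the same strand, so both counts are uncertain. Sec63, a translocation partner of BiP, rose from 184 ± 7.40 to 233 ± 8.53 CPM (0.34, adjusted p = 1.3e-05), and Ssr1 of the translocon-associated complex from 223 ± 5.42 to 276 ± 5.95 CPM (0.31, adjusted p = 1.6e-05).

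Of the eIF2α kinases, Eif2ak2 rose 2.42-fold. This kinase, PKR, is activated by double-stranded RNA and is an interferon-stimulated gene. It was at 102.5, 102.0 and 119.7 CPM in control and 251, 282 and 252 CPM in knockout cultures, with no overlap (log2 fold change 1.27, SE 0.06, adjusted p = 1.6e-10). Eif2ak1 (0.02), Eif2ak3 (-0.06, the sensor PERK above) and Eif2ak4 (-0.07) were not called. Eif2s1, which encodes eIF2α, rose from 114 ± 2.41 to 133 ± 7.51 CPM (0.23, adjusted p = 0.0015).

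Ppp1r15a, the GADD34 phosphatase subunit that reverses eIF2α phosphorylation, fell from 87.2, 90.3 and 85.4 CPM in control to 65.4, 62.5 and 61.9 CPM in knockout cultures (-0.47, SE 0.05, adjusted p = 1.0e-06). The bZIP factor Atf3 fell from 38.7 ± 1.63 to 30.8 ± 2.89 CPM (-0.33, adjusted p = 0.0016), and Atf5 fell by 0.20 on the log2 scale (adjusted p = 0.023). Ddit3 rose while Ppp1r15a and Atf3, other genes induced in this response, fell. In all, 2 of the 11 genes in this list rose and 3 fell, against 19.6% and 18.7% of all genes tested. The list median was -0.06. That median was -0.090 without control replicate 2, -0.020 without control replicate 3, 0.002 without knockout replicate 2 and -0.121 with total-count scaling.

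Of 26 ATF4-linked stress and amino acid genes tested, 8 rose and 5 fell (3 without control replicate 3), against 19.6% and 18.7% of all genes tested. The median was 0.08 (0.012 with total-count scaling), and Fgf21 was not tested. The cystine transporter Slc7a11, which the oxidative stress factor NRF2 also induces, rose from 238, 232.5 and 271 CPM in control to 585, 631 and 595 CPM in knockout cultures, 2.44-fold (1.29, SE 0.05, adjusted p = 4.8e-12). A stretch of 373 bases, 4.0% of the Slc7a11 transcript, has near copies in Tuba1a (76402 to 117165 reads per library), Tuba1b, Tuba1c and pseudogenes. Reads there may be shared. Nupr1, a stress-induced chromatin protein, rose from 83.6 ± 2.52 to 118 ± 5.37 CPM (0.50, adjusted p = 4.1e-07). Vldlr, a lipoprotein receptor, rose from 45.1 ± 1.41 to 67.1 ± 3.95 CPM (0.57, adjusted p = 4.7e-07). Slc7a5, the large neutral amino acid transporter, fell from 288 ± 3.31 to 210.3 ± 13.8 CPM (-0.46, adjusted p = 7.6e-07). Ddit4, Slc1a5, Stc2, Slc7a3 and Chac1 also rose, and Slc1a4, Phgdh, Gdf15 and Sesn2 fell; those that rose and those that fell both include amino acid transporters.

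Many of the cytosolic aminoacyl-tRNA synthetases, which charge tRNAs, are ATF4 targets. Of 20, 8 rose and 0 fell, against 19.6% and 18.7% of all genes tested (1 fell with total-count scaling, with DESeq2 and without control replicate 3). In those fits, in that order, 24.3%, 19.5% and 17.1% of all genes tested fell. The median was 0.08, or 0.049 without knockout replicate 2 and 0.018 with total-count scaling. Rars rose from 107 ± 2.15 to 144 ± 7.57 CPM (0.43, adjusted p = 2.0e-06), Eprs from 203 ± 3.13 to 254 ± 12.1 CPM (0.32), Wars from 120.1 ± 3.22 to 148 ± 1.97 CPM (0.30) and Gars from 164 ± 4.30 to 199.9 ± 3.60 CPM (0.28). The others that rose were Kars, Nars, Tars and Lars.

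Of 9 death genes linked to CHOP, 3 rose and 2 fell, against 19.6% and 18.7% of all genes tested. Their median of 0.02 was -0.014 without control replicate 1, 0.037 without control replicate 3, 0.007 without knockout replicate 1, 0.043 without knockout replicate 3 and -0.042 with total-count scaling. Casp12, a caspase at the ER membrane, rose from 30.8 ± 0.960 to 51.6 ± 5.20 CPM (0.74, adjusted p = 2.1e-07), and the BH3-only gene Bcl2l11 (BIM) from 37.9 ± 2.21 to 51.1 ± 2.58 CPM (0.43, adjusted p = 3.5e-05). Pmaip1 (NOXA), another BH3-only gene, fell from 49.6 ± 1.46 to 28.8 ± 1.97 CPM (-0.78, adjusted p = 3.4e-08). This list shares Ero1l, Ppp1r15a and Trib3 with the lists above. It also holds Bcl2, which opposes cell death and was not called, so its median does not stand for 1 direction of effect.

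**Figure D5:**
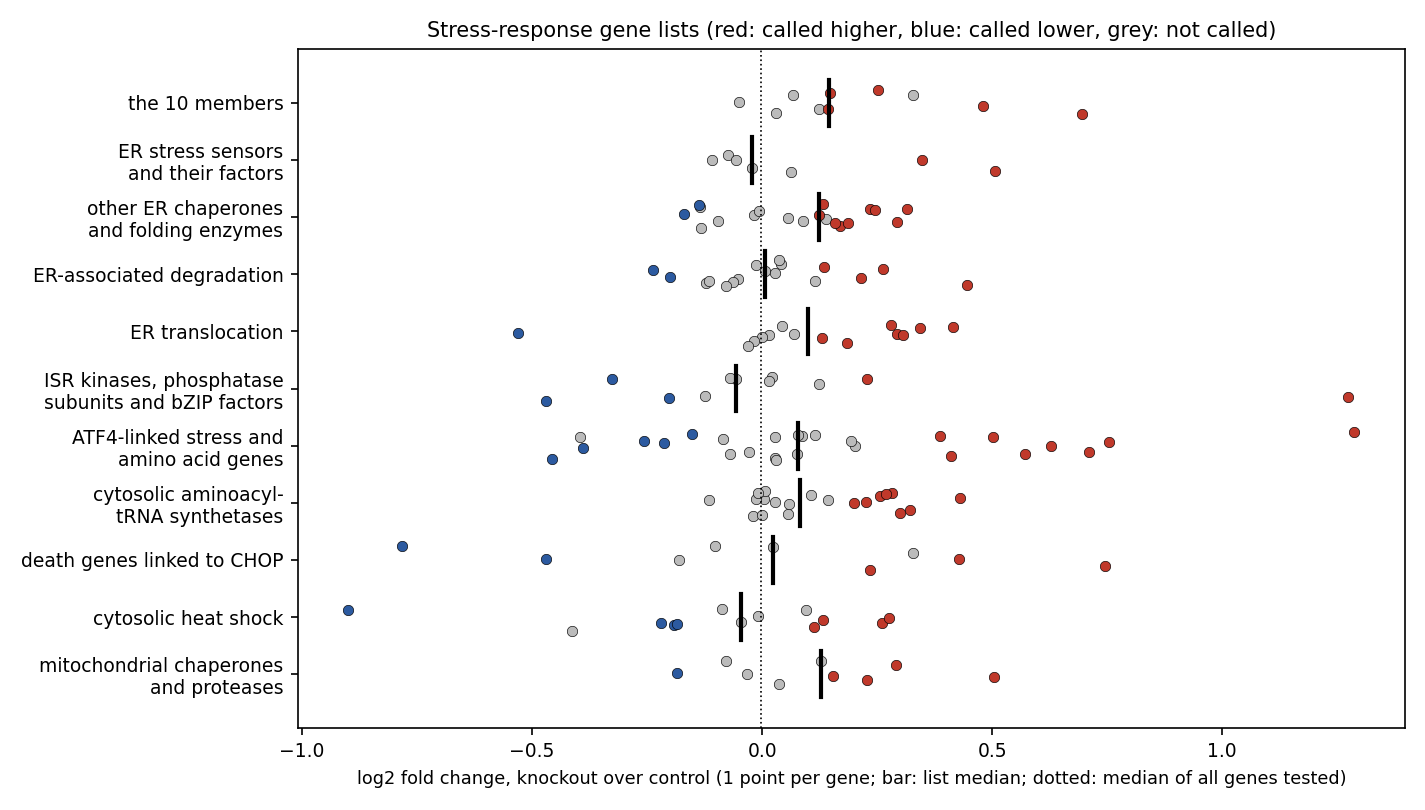
Log2 fold change of knockout over control (horizontal axis) for each tested gene of the 10 genes and 10 further stress lists (1 point per gene; red called higher, blue called lower, grey not called; vertical bars are list medians, the dotted line the median of all genes tested). Medians run from -0.06 for the integrated stress response list to 0.14 for the 10 genes, and Eif2ak2 (1.27) and Slc7a11 (1.29) lie farthest to the right.

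Several sets of markers of other cells moved with the genotype in the same libraries, where 19.6% of all genes tested rose and 18.7% fell. Of 10 fibroblast and meningeal markers tested, 8 rose and 1 fell, and their sum went from 3085 to 3274 CPM in control to 4737 to 5355 CPM in knockout libraries; Col1a1 alone went from 1949.8 ± 80.7 to 2976 ± 282 CPM. Of 13 microglial markers 1 rose and 10 fell, from a sum of 89.1 to 93.8 CPM to one of 52.6 to 56.8 CPM. Of 7 endothelial markers 4 rose (95.9 to 100.4 against 157 to 163 CPM), and of 8 mural markers 1 rose and 4 fell (4108 to 4320 against 2933 to 2985 CPM). Most of the mural sum was Acta2 (3850 ± 106 to 2685 ± 29.4 CPM), and the mural marker that rose was Pdgfrb (80.3 ± 3.17 to 115 ± 3.56 CPM). Neuron markers (1 of 10 rose, 2 fell) stood near or below the shares of all genes tested. Their sum was 328 to 342 against 261 to 282 CPM, most of it Stmn2 (284 ± 8.35 to 225 ± 9.11 CPM). Their median log2 fold change was 0.16. Oligodendrocyte lineage markers summed to 335 to 344 against 292 to 338 CPM (2 of 9 rose, 4 fell). Of the defining markers, Dpt, Slc6a13, Mog, Cldn5 and Kcnj8 were too low to test, and Sox10 was at 0 in knockout replicate 1. The astrocyte markers were present in all libraries, with 2 of 12 higher and 7 lower (sum 2795 to 2870 against 2512 to 2643 CPM): Gfap fell from 946 ± 20.8 to 431 ± 3.85 CPM, and Aqp4 rose from 605 ± 35.5 to 879 ± 31.2 CPM. The part of these markers in the differences of Hspa5, Hsp90b1, Ddit3 and the other genes was not tested.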

How the data were processed

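Trizol-extracted RNA was selected on poly-T beads for library preparation, per the labels' protocols. Per the submitters' processing notes, the tools were HISAT2 2.2.1 and featureCounts 2.0.6 and the build GRCm38 (mm10). The deposited values are raw counts per gene, whole numbers without normalisation. Annotation release, strandedness of counting and handling of multi-mapped reads were not given in the sources used here, so sense and antisense neighbours and near copies may share reads.

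Counts were tested with edgeR 4.0.16 (R 4.3.3): TMM scaling, filterByExpr (minimum count 10, minimum total 15; 18530 genes with 99.96% of counts), robust glmQLFit and glmQLFTest on genotype alone, two-sided, Benjamini-Hochberg over all genes tested, threshold 0.05. Total counts per library were 60819277 to 106081115; the 10 genes had 466 to 153081 reads per library. CPM and RPKM were computed from the counts with TMM-scaled library sizes, and RPKM with GENCODE M21 exon lengths. SE and intervals came from the test statistic. Replicates show only the spread between these samples, which may in part be technical. No replicate was a duplicate of another. The tests were run on simulated data first.

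The 10 genes and all lists were chosen with earlier results of these data known. Named are the 10 genes, Neo1, up to 4 called genes per list with the smallest p and any with 2-fold non-overlapping change, and the most abundant markers; other names complete a count and were chosen after values were seen. Some genes that the rule names are not reported here. Deviations of same-numbered replicates were almost uncorrelated (-0.008 to 0.019, other pairs -0.022 to 0.013). Such weak values cannot show whether the numbers pair samples by litter or preparation. Promoters came from RefSeq (GRCm38.p6), and near copies from BLAST 2.17.0 at 95% identity over 100 bases. Alternatives were median-of-ratios and total-count scaling, DESeq2 1.42.0, limma-voom 3.58.1, no filter, a replicate block and each library left out.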

Additional observations from a re-analysis of the deposited data

How the results depend on the processing

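Over 48 named genes and 12 alternatives, 554 of 576 fold changes kept their direction and their side of the threshold, 15 fell short of it, 4 newly passed and 3 turned in sign: Sdf2l1 without knockout replicate 1 (-0.065; up to 0.189 without knockout replicate 2), and Asns with total-count scaling (-0.0345) and without control replicate 3 (-0.00980; up to 0.0554 without control replicate 2). Outside the 10 genes and Neo1, the named genes were picked from those called in the main fit. Their staying called was largely fixed in advance, so the pooled count does not describe the 10 genes. Among the 10, Pdia4, Dnajb9, Sdf2l1, Trib3, Atf4 and Asns changed their call or sign under some alternatives. Hspa5, Hsp90b1 and Ddit3 were called under all 12. Scaling by total counts called 15.8% of all genes tested higher and 24.3% lower. With total-count scaling, 3 of the 10 genes rose and 1 fell (median 0.0796, all genes -0.07); 2 sensors fell, 5 other chaperones rose and 4 fell, 2 degradation genes rose and 6 fell, 1 tRNA synthetase fell (also 1 with DESeq2), 2 heat shock genes rose and 2 mitochondrial genes fell (0 with limma-voom). Leaving out 1 library gave 3 (without control replicate 1 or 2) to 6 (without knockout replicate 2) of the 10 genes higher, with a median of 0.14 to 0.18 (highest without knockout replicate 2), 0 to 3 other chaperones lower, 2 to 4 degradation genes higher, 3 to 6 ATF4-linked genes lower, 0 to 1 tRNA synthetases lower, 2 to 4 heat shock genes higher and 0 to 1 mitochondrial genes lower; the cause was not tested. When 1 library was left out, 15.1% to 18.3% of all genes tested rose and 14.2% to 17.9% fell. The share that rose was 15.2% without control replicate 1, 15.1% without control replicate 2 and 18.2% without knockout replicate 2. With the replicate block, 5 of the 10 genes rose, against 18.9% of all genes tested, with Trib3 in and Dnajb9 out (adjusted p = 0.053). Whether the numbers pair the samples is not known. Trib3 had the fewest reads of the 10 genes, 466 to 1008 per library, against 86495 to 153081 for Hspa5.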

Other observations

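Chaperones of other compartments were described as well, from lists that were chosen with earlier results known. Of 13 cytosolic heat shock genes, 4 rose and 4 fell, against 19.6% and 18.7% of all genes tested. The rises were 2 when libraries were scaled by total counts, and 2 when control replicate 1 or control replicate 2 was left out. In those fits, in that order, 15.8%, 15.2% and 15.1% of all genes tested rose. Their median log2 fold change was -0.05, with -0.086 without control replicate 1, -0.009 without control replicate 2, -0.076 without control replicate 3, -0.079 without knockout replicate 1 and -0.111 with total-count scaling. The small heat shock gene Hspb1 fell from 148 ± 7.17 to 79.1 ± 3.40 CPM (-0.90, adjusted p = 2.9e-10, with near copies elsewhere in the genome), and Hspb8 fell from 391 ± 11.4 to 336 ± 6.37 CPM (-0.22, adjusted p = 3.7e-04). The cytosolic chaperones Hsp90aa1 and Dnaja1 both rose, Hsp90aa1 from 741 ± 8.43 to 896 ± 62.3 CPM and Dnaja1 from 195 ± 5.66 to 233 ± 9.18 CPM (0.28 and 0.26, adjusted p = 1.3e-04 and 1.8e-04), both with transcribed near copies that make their counts uncertain.

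Of 9 mitochondrial chaperones and proteases, 4 rose and 1 fell, against 19.6% and 18.7% of all genes tested. The count that fell was 0 without control replicate 1, control replicate 2, knockout replicate 2 or knockout replicate 3. The median was 0.13, or 0.068 without knockout replicate 2 and 0.062 with total-count scaling. The inner membrane protease Yme1l1 rose from 81.2 ± 0.660 to 115 ± 5.93 CPM (0.50, adjusted p = 3.7e-07). Hspa9, the mitochondrial HSP70 chaperone, rose from 427 ± 3.29 to 523 ± 27.5 CPM (0.29, adjusted p = 3.8e-05). The chaperonin Hspd1 went from 283 ± 10.5 to 331 ± 9.41 CPM (0.23, adjusted p = 4.6e-04), and its count is uncertain too, since the pseudogene Hspd1-ps3, with 334 to 598 reads per library, is a near copy of 71.1% of its transcript.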
